A study of Homo sapiens with 6 samples.

Results

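Exons of at most 51 bases, too short for many of the contacts through which the splicing machinery recognises an exon, were followed through the skipped exon events of an RNA-seq study of KDM4B in prostate cancer cells. An event is 1 row of the deposited table of skipped exon events: an exon that can be left out, the exon before it and the exon after it. The members were the events whose skipped exon, from its start to its end, measured at most 51 bases. They were 2394 of 40622 events (5.89%), with 1998 different exons in 1667 genes. Of these, 334 events (299 exons in 277 genes) had an exon of at most 27 bases, the size range to which the word microexon usually refers, and 2060 events (1699 exons in 1468 genes) had an exon of 28 to 51 bases. The length alone chose them, and no read count was used.

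The RNA came from LNCaP, a human line of prostate cancer that depends on androgen and expresses luminal genes of the prostate. There were 3 libraries from cells stably carrying Flag-KDM4B (replicates 1, 2 and 4) and 3 from cells stably carrying the plenti6 control plasmid, here called vector (replicates 1, 2 and 3). KDM4B is a demethylase of histone lysines, and the title of the series names alternative splicing in castration resistant prostate cancer as its subject. All cells were grown in RPMI medium with 10% FBS and then kept for 3 days in RPMI medium with 10% of a serum given only as CFBS. The labels do not say whether the replicates were separate cultures or the lines single clones, so the p-values measure only the spread between these libraries, which may be technical.

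Microexons are known from neurons, where the splicing factor SRRM4 and its relative SRRM3 bring them into the transcript, and where they add or remove a few amino acids at the surface of a protein without shifting the reading frame. Polypyrimidine tract binding proteins such as PTBP1 hold many of them back in other tissues, and the RBFOX, NOVA, QKI, MBNL and ESRP families act on cassette exons according to where they bind. REST, the repressor of neuronal genes, keeps SRRM4 low outside the nervous system, and its loss in prostate cancer is known to go with neuroendocrine features.

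The shortest exons of the table had 8 bases and lay in PITPNB, MYEF2 and PITPNA, the first and last of which encode phosphatidylinositol transfer proteins. The 9-base exons, long enough for 3 codons, lay among others in AP1B1 (a clathrin adaptor subunit), MAP4K4 (a kinase), PTK2 (focal adhesion kinase), PPFIA2 (a liprin of cell contacts), MYO5A (an organelle motor), DIAPH1 (an actin nucleator) and NUDT5. The median length was 42 bases, and 51, 45, 48, 49 and 39 bases were the most frequent lengths, with 157, 133, 130, 102 and 100 exons. Most genes (1391) held 1 such exon, 226 held 2, 43 held 3, 6 held 4 and BTNL9 held 5. PTPRS, a receptor tyrosine phosphatase whose extracellular part is known to vary by very short exons, NFASC (neurofascin), ARHGEF12, TAF1D, FBRS and PIP5K1A were the 6 genes with 4.

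A length divisible by 3, which leaves the reading frame unchanged where the exon is coding, was more frequent the shorter the exon. It was found in 33 of 43 exons of 8 to 15 bases (76.7%), in 158 of 256 exons of 16 to 27 bases (61.7%), in 304 of 579 of 28 to 39 bases (52.5%) and in 511 of 1120 of 40 to 51 bases (45.6%). In exons of 52 to 100, 101 to 200 and over 200 bases the share was 41.4%, 40.1% and 42.0%. Over all members it was 1006 of 1998 exons (50.4%). The step down with length thus lay within the members, and above 51 bases the share stayed within 2 percentage points. The deposited table listed a RefSeq transcript that joins the flanking exons directly, which is the skipped form, for 111 of 334 events with at most 27 bases (33.2%), for 19.0% of the events with 28 to 51 bases and for 11.1% of those with 52 to 200 bases. The inclusion form was listed for 2289 of the 2394 members (95.6%).

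**Figure D1:**
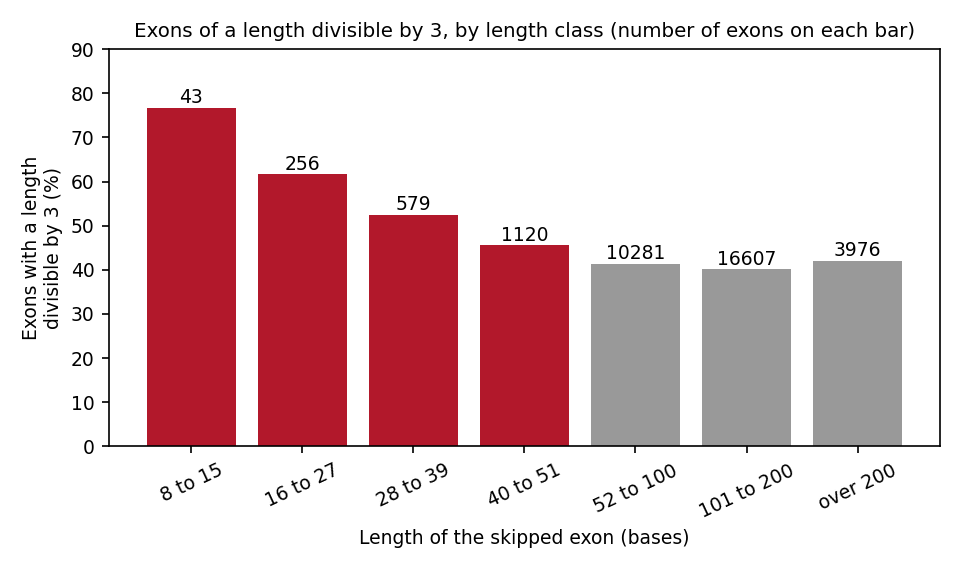
Share of different skipped exons whose length is divisible by 3 (y axis, %) in 7 classes of exon length (x axis, bases), with the number of exons above each bar; red bars hold the exons of at most 51 bases. The share falls from 76.7% for 8 to 15 bases to 45.6% for 40 to 51 bases and lies between 40.1% and 42.0% in the longer classes.

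Summed over all skipped exon events, the counts were 14212396 to 14787321 in the libraries labelled KDM4B and 16451082 to 17021204 in the vector libraries, and the members took 1.87% ± 0.00198 and 1.83% ± 0.00731 of them (SD, n = 3 each). KDM4B itself was at 26.33, 27.17 and 25.76 FPKM (an expression level corrected for transcript length and depth) under the label KDM4B and at 24.73, 25.15 and 25.28 with vector. This log2 fold change of 0.07 did not pass the test (limma, Benjamini-Hochberg adjusted p = 0.113). It was 0.31 once each library was scaled by its median of ratios (limma adjusted p = 1.93e-05). The groups did not overlap in the FPKM as deposited, but the difference there was small, and "the libraries labelled KDM4B" is used throughout. Ribosomal RNA genes took 10.5%, 8.14% and 10.2% of all FPKM under the label KDM4B and 0.473%, 0.144% and 0.147% in the vector libraries. The 8 luminal markers summed to 1326 to 1397 and 3970 to 4136 FPKM, with 2 higher and 6 lower. Of neuroendocrine markers, ENO2 was at 12.81 to 14.62 and 11.40 to 13.73 FPKM. Its log2 fold change was 0.15 as deposited (limma adjusted p = 0.0805) and 0.37 after scaling (limma adjusted p = 0.00063). SYP was at 0.65 to 0.70 and 0.95 to 1.16 without overlap (not tested, mean under 1 FPKM), and CHGA, CHGB and NCAM1 were at 0.08 or below in every library. The 4 stromal genes summed to 3.32 to 3.61 and 2.59 to 2.69, the 3 immune genes to at most 0.27, and the 2 endothelial genes to at most 1.01. The part of the ribosomal share and of the luminal markers in the results below was not tested, and any batch of library preparation cannot be told apart from the group, since the titles of the libraries labelled KDM4B alone carry a common suffix.

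Short exons were covered by fewer reads than longer ones. Of the members, 1768 (73.9%) had at least 10 reads in each library, against 90.04% of events with an exon of 52 to 200 bases, and the median over events of the mean reads per library was 44.2 for the members, 33.8 for those of at most 27 bases and 129 for 52 to 200 bases. Where nearly all reads were inclusion reads and the gene had at least 5 FPKM, the median number of inclusion reads per FPKM was 1.48 for exons of at most 27 bases, 2.11 for 28 to 51, 4.21 for 52 to 100 and 7.35 for 101 to 200 bases. Inclusion reads therefore grew with the length of the exon, and an inclusion share, here the inclusion reads as a percent of inclusion and skipping reads, can be compared between libraries for 1 exon but not between exons of different length.

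The first question was whether single short exons were included more or less often in the libraries labelled KDM4B. The deposited count of an event joins its inclusion and skipping reads. They could be separated for 309 members (12.9%; 260 exons in 241 genes) that form a set with a 2nd skipped exon and with the event in which the 2 exons exclude each other. In such a set a skipping read lacks both exons. Of the 309, 202 had at least 10 reads in each library. Of these 202, 132 (65.3%) had fewer than 10 skipping reads over all 6 libraries, 18 of them with 0, and 7 had fewer than 10 inclusion reads. The remaining 63 events (57 exons in 54 genes) were tested: 9 with an exon of at most 27 bases and 54 with 28 to 51 bases.

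Among the 63 tested events 3 passed the test, MYO6 with more and MRPL55 and SORBS3 with less inclusion (edgeR quasi-likelihood test, Benjamini-Hochberg adjustment over all 1351 events tested). Over all events tested 5.55% were called, 0.814% higher and 4.74% lower. The groups did not overlap in 17 of the 63 events (26.98%), 10 higher and 7 lower, and in 25.8% of all events tested, 9.18% higher and 16.7% lower. An unadjusted p under 0.05 was found for 13 (20.6%), against 20.4% of all events. Without regard to direction, the shares without overlap and with an unadjusted p under 0.05 are close to those over all events. The median log2 odds ratio of inclusion, labelled KDM4B over vector, was 0.13 for the 63 events and -0.08 for all 1351, with 34 above and 29 below 0.

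**Figure D2:**
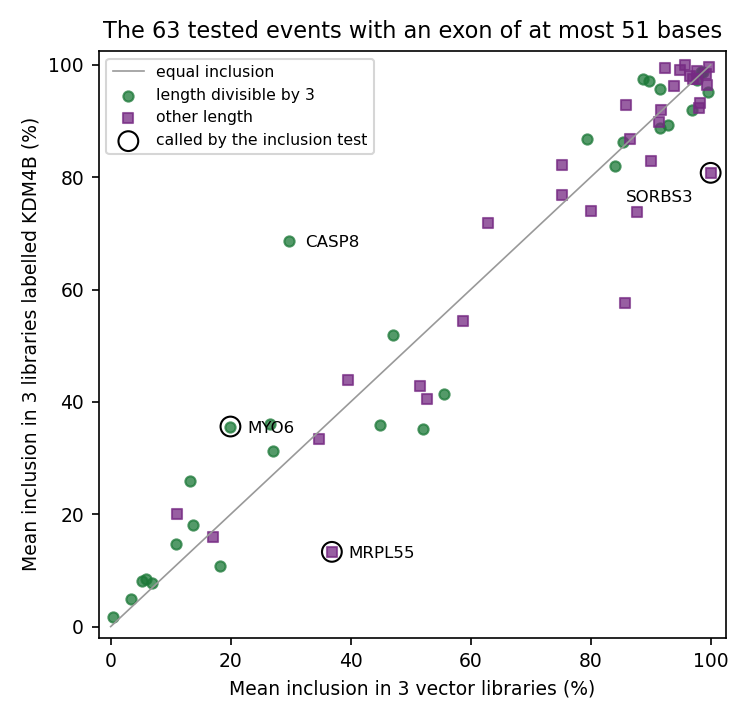
Mean inclusion share (%) in the 3 vector libraries (x axis) and in the 3 libraries labelled KDM4B (y axis) for the 63 tested events, green circles for exon lengths divisible by 3 and purple squares for other lengths; the line marks equal inclusion and open circles the 3 called events. MYO6 lies above the line (35.6% against 19.96%) and MRPL55 (13.3% against 36.9%) and SORBS3 (80.8% against 100%) lie below it.

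In the vector libraries 33 events had a mean inclusion share over 80%, 18 lay between 20 and 80% and 12 under 20%. Within the reads of their events the tested short exons thus ranged from nearly always included to nearly always left out. Mostly left out in both groups were the short exons of LPHN1, MARK3, SPOP (a ubiquitin ligase adaptor mutated in prostate cancer, 7.83% ± 3.22 against 6.83% ± 0.756, SD, n = 3 each), DAG1 (dystroglycan, 8.56% ± 4.39 against 5.84% ± 1.06), CD59 (a complement inhibitor, 14.8% ± 6.02 against 10.9% ± 3.00) and CAMSAP3 (a microtubule minus-end protein, 10.7% ± 5.30 against 18.3% ± 2.20). Their differences did not pass the test.

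MYO6 encodes myosin VI, the motor that walks towards the minus end of actin filaments, and its tail is known to vary by alternatively spliced inserts. Both exons of its set are members. The 30-base exon (10 codons) lies at chr6:76604948-76604977 and the 39-base exon (13 codons) at chr6:76608090-76608128, both on the plus strand, in the coordinates of the deposited table. Reads that included the 39-base exon numbered 76, 95 and 82 in the libraries labelled KDM4B and 60, 58 and 72 in the vector libraries. Reads that skipped both exons numbered 137, 158 and 162 in the libraries labelled KDM4B and 259, 253 and 249 in the vector libraries. The 2 groups did not overlap in either count, with more inclusion and fewer skipping reads in the libraries labelled KDM4B. The inclusion share of the 39-base exon was 35.6% ± 1.97 against 19.96% ± 2.14 (SD, n = 3 each), a log2 odds ratio of 1.15 (SE 0.349, edgeR adjusted p = 0.0387).

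Reads that included the 30-base exon of MYO6 numbered 25, 35 and 42 in the libraries labelled KDM4B and 31, 46 and 44 in the vector libraries, so that these counts overlapped. Set against the same skipping reads, its inclusion share was 18.1% ± 2.58 against 13.7% ± 2.61 (SD, n = 3 each), with a log2 odds ratio of 0.48 (SE 0.381, edgeR adjusted p = 0.528). Unlike the counts, the shares did not overlap, at 15.43, 18.13 and 20.59% against 10.69, 15.38 and 15.02%. The difference between the 2 exons was not tested. In another event of MYO6 the 30-base exon is itself the exon before the 39-base exon. Its deposited count, which joins both forms, was 101, 125 and 127 in the libraries labelled KDM4B and 90, 101 and 113 in the vector libraries. Reads of the 39-base exon may thus come from transcripts that hold both exons, and their part was not tested. The call for the 39-base exon was lost with DESeq2 (adjusted p = 0.0700), without replicate 1 or 2 of the libraries labelled KDM4B (0.0622 and 0.0949) and without vector replicate 1, 2 or 3 (0.111, 0.107 and 0.0921). The log2 odds ratio stayed between 1.09 and 1.26 as each library was left out in turn. The summed level of MYO6 was 48.5 ± 1.27 against 54.7 ± 2.61 FPKM (SD, n = 3 each).

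**Figure D3:**
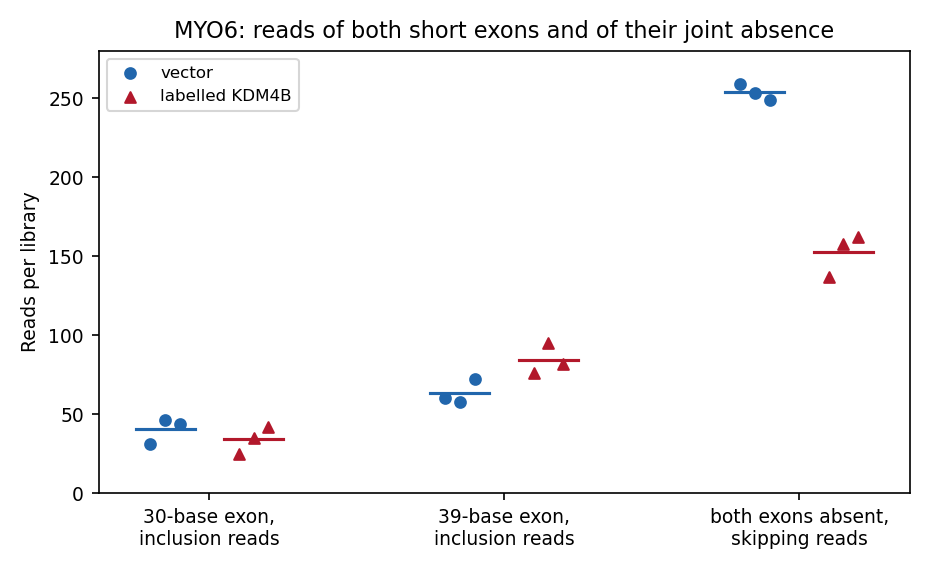
Reads per library (y axis, counts) that include the 30-base exon of MYO6, include its 39-base exon or skip both (x axis); blue circles are the 3 vector libraries, red triangles the 3 libraries labelled KDM4B and lines the means. Skipping reads number 249 to 259 in the vector libraries and 137 to 162 in the libraries labelled KDM4B, and only the counts of the 30-base exon overlap between the groups.

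MRPL55 encodes a protein of the large subunit of the mitochondrial ribosome. Its 38-base exon (chr1:228296138-228296175, minus strand) was included in 20, 12 and 8 reads of the libraries labelled KDM4B and in 38, 33 and 39 reads of the vector libraries. It was skipped in 85, 96 and 74 reads of the libraries labelled KDM4B and in 59, 70 and 60 of the vector libraries. Neither count overlapped between the groups. The inclusion share was 13.3% ± 5.02 against 36.9% ± 4.18 (SD, n = 3 each), a log2 odds ratio of -1.91 (SE 0.498, edgeR adjusted p = 0.0193). The deposited table lists 1 RefSeq transcript with the exon between these flanks and 3 that skip it.

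A 2nd event of MRPL55 has the same exon and shares the flank that ends at 228296019, while its other flank differs. Its inclusion reads numbered 18, 11 and 8 against 35, 30 and 37, close to the 20, 12 and 8 against 38, 33 and 39 of the 1st event. The same reads may be counted in both, so the 2nd event is not a separate result. With 14, 11 and 4 skipping reads in the libraries labelled KDM4B and 3, 8 and 6 in the vector libraries, its inclusion share was 57.6% ± 8.42 against 85.7% ± 6.59 (SD, n = 3 each). The log2 odds ratio of -2.20 (SE 0.723) did not pass the test (edgeR adjusted p = 0.0607), and the groups did not overlap in share. The call of the 1st event was lost without vector replicate 1 or 3 (adjusted p = 0.0746 and 0.0806), while the log2 odds ratio stayed between -2.30 and -1.72 as each library was left out in turn. MRPL55 as a whole was lower in the libraries labelled KDM4B, at 50.96 ± 4.55 against 76.0 ± 5.63 FPKM (SD, n = 3 each; limma log2 fold change -0.57, adjusted p = 1e-05; -0.33 after scaling).

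SORBS3 encodes vinexin, an adaptor of cell adhesion sites. Its 47-base exon (chr8:22423339-22423385, plus strand) was included in 14, 24 and 19 reads of the libraries labelled KDM4B and in 23, 19 and 17 of the vector libraries. Skipping reads numbered 8, 2 and 3 in the libraries labelled KDM4B and 0, 0 and 0 in the vector libraries. The inclusion reads overlapped and the skipping reads did not, and replicate 1 of the libraries labelled KDM4B held 8 of the 13. Summed over the group, 13 of 70 reads (18.6%) skipped the exon in the libraries labelled KDM4B, and 0 of 59 did so in the vector libraries, where 3 reads would be a share of up to 5.08%. Against this floor of 3 reads over the group the skipping share was 3.65-fold higher, with no allowance for error in the 13 reads. Without replicate 1 of the libraries labelled KDM4B, which left 5 skipping reads of 48 (10.4%), the skipping share was 2.05-fold higher than this floor. Without vector replicate 1 it was 2.23-fold higher than 3 reads would give. The inclusion test passed at an edgeR adjusted p of 0.0387. The event reached the 10 skipping reads needed for the test only through the libraries labelled KDM4B, where skipping was higher.

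With DESeq2 the adjusted p for SORBS3 was 0.0523, and without vector replicate 1, 2 or 3 it was 0.134, 0.111 and 0.119 with edgeR. Without replicate 1 of the libraries labelled KDM4B, fewer than 10 skipping reads remained and the event was not tested. All 3 calls, MYO6, MRPL55 and SORBS3, were lost when events without a minimum of reads were tested too (edgeR adjusted p of 0.706, 0.327 and 0.515).

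Of the 10 short exons with the largest difference in inclusion share among those with groups that do not overlap and no library under 20 reads, the 8 besides MYO6 and MRPL55 did not pass the test. The 32-base exon of PFDN5, a subunit of the prefoldin chaperone, was included at 35.4, 45.8 and 40.4% in the libraries labelled KDM4B and at 46.1, 58.8 and 53.4% in the vector libraries (edgeR adjusted p = 0.231). The 49-base exon of GALT, an enzyme of galactose metabolism, was included at 72.7, 77.3 and 71.2% against 84.7, 86.4 and 91.9% (adjusted p = 0.185 with edgeR). The 45-base exon of MARK2, a kinase that acts on microtubule-binding proteins, was included at 91.5, 92.4 and 92.1% against 99.3, 96.2 and 95.4% (adjusted p = 0.145 with edgeR). These 3, together with MTA1, were lower in every library labelled KDM4B than in any vector library.

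MTA1 encodes a subunit of the NuRD chromatin remodelling complex. Its 51-base exon, at the length limit, was skipped in 3, 4 and 3 reads against 1, 0 and 0, with inclusion at 95.1% ± 0.436 against 99.6% ± 0.713 (SD, n = 3 each; edgeR adjusted p = 0.0879). Higher in every library labelled KDM4B were the 39-base exon of TPD52L1 (36.1% ± 6.43 against 26.6% ± 2.69, edgeR adjusted p = 0.319) and the 49-base exon of MORF4L2, a chromatin protein (71.8% ± 2.95 against 62.9% ± 3.56, edgeR adjusted p = 0.384). So were the 41-base exon of NDUFAF2, an assembly factor of respiratory complex I (99.3% ± 1.13 against 92.4% ± 4.81, edgeR adjusted p = 0.121), and the 45-base exon of EIF2AK4, the kinase that senses amino acid shortage (97.5% ± 2.34 against 88.8% ± 5.08, edgeR adjusted p = 0.299). As in SORBS3, the events of MTA1, NDUFAF2 and EIF2AK4 reached the 10 skipping reads needed for the test only through the group where skipping was higher.

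The 45-base exon of CASP8, the initiator caspase of death receptor signalling, was singled out after its values were seen, since it had the largest difference in inclusion share of all 63 events. At chr2:202137621-202137665 (plus strand), it was included in 8, 8 and 8 reads of the libraries labelled KDM4B and in 7, 12 and 4 of the vector libraries. It was skipped in 3, 4 and 4 reads against 27, 14 and 14. The shares did not overlap, at 68.7% ± 3.50 against 29.7% ± 14.3 (SD, n = 3 each). With 11 to 34 reads per library, the log2 odds ratio of 2.35 (SE 0.824) did not pass the test (edgeR adjusted p = 0.0811).

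The 13 events with an unadjusted p under 0.05 were those of MRPL55 (2 events that share the exon and may share reads), MYO6 (39 bases), SORBS3, CASP8, MTA1, NDUFAF2, MARK2, GALT and PFDN5 described above. To these came 3 more in PLEKHB2, ABHD3 and CECR5, which are named after their values were seen. The 40-base exon of PLEKHB2 was skipped in 7, 9 and 4 reads of the libraries labelled KDM4B and in 4, 0 and 2 of the vector libraries. The 46-base exon of ABHD3 was skipped in 0, 0 and 0 reads against 9, 0 and 1, where 9 of the 10 came from vector replicate 1. The 34-base exon of CECR5 was skipped in 6, 2 and 9 reads against 2, 0 and 2. The groups overlapped in inclusion share in each of the 3, and none passed the test (edgeR adjusted p = 0.113, 0.206 and 0.225). Like SORBS3, MTA1 and NDUFAF2, these 3 reached the 10 skipping reads needed for the test only through the group where skipping was higher. This limits what the p-values of these events can show.

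**Figure D4:**
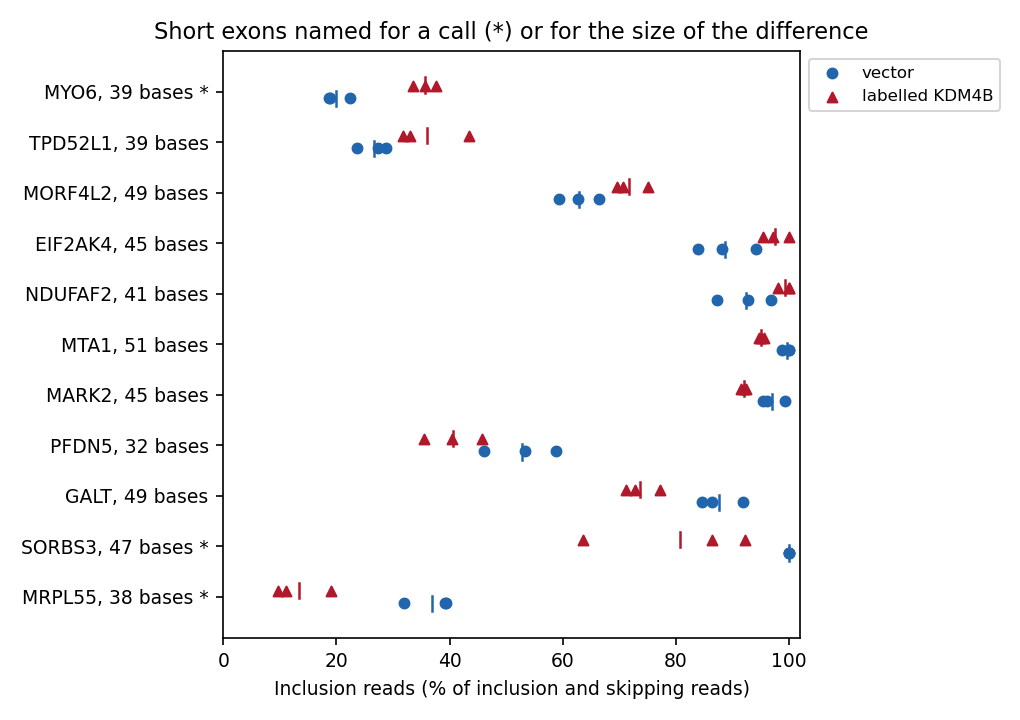
Inclusion share in each library (x axis, %) for the 11 short exons (y axis) that were called (asterisk) or were among the 10 largest differences without overlap; blue circles are vector libraries, red triangles libraries labelled KDM4B and ticks the group means. MYO6 is highest and MRPL55 lowest in the order of the differences, and the 2 groups are apart in every row.

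Tested short exons also lay in a splicing regulator and in genes of trafficking and autophagy. The 36-base exon of MBNL1, a regulator of cassette exons that is itself known to be spliced in several forms, was included in 32, 39 and 30 reads and skipped in 3, 2 and 7 in the libraries labelled KDM4B. In the vector libraries 57, 38 and 42 reads included it and 2, 3 and 5 skipped it. Its inclusion share of 89.2% ± 7.28 against 92.9% ± 3.63 (SD, n = 3 each) overlapped between the groups (edgeR adjusted p = 0.716). The 39-base exon of SEC31A, a coat protein of vesicles leaving the endoplasmic reticulum, was included at 35.9% ± 4.28 against 44.9% ± 6.35, and the 44-base exon of SNX14, a sorting nexin, at 44.0% ± 7.14 against 39.5% ± 9.89 (edgeR adjusted p = 0.647 and 0.846; SD, n = 3 each). Both exons were thus used in an intermediate share of the reads of their events, with overlapping groups.

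At the length limit itself, 4 tested events had an exon of exactly 51 bases, in MTA1, KLC1 (kinesin light chain 1), ATG13 (an autophagy initiation factor) and SPOP, and 4 had one of exactly 52 bases, just outside. The median vector inclusion share was 49.6% inside and 54.4% outside the limit, and the median log2 odds ratio was -0.43 and 0.24. The exon of KLC1 was included at 51.9% ± 9.63 against 47.1% ± 5.0 and that of ATG13 at 35.3% ± 13.1 against 52.1% ± 10.4 (SD, n = 3 each), with overlapping groups in both.

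Exons of at most 27 bases, the microexons in the usual sense, gave 9 tested events with 7 exons in 7 genes. Of these 9, 0 were called and 0 had an unadjusted p under 0.05, with edgeR as with DESeq2, and the groups overlapped in all 9. Over all events tested with edgeR, 5.55% were called, 20.4% had an unadjusted p under 0.05 and 25.8% had no overlap. The shortest was the 14-base exon of EEF1D, a subunit of the translation elongation factor 1 complex. It was included in 12, 15 and 8 reads and skipped in 24, 21 and 24 in the libraries labelled KDM4B. In the vector libraries 7, 10 and 9 reads included it and 17, 26 and 10 skipped it. The shares were 33.3% ± 8.33 and 34.8% ± 10.9 (SD, n = 3 each). About 1 in 3 of these reads carried the exon in each group. Reads with the 131-base partner exon alone are not among them, so this is not the use of the exon over all EEF1D transcripts.

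The 15-base exon of LPHN1 (now ADGRL1), the adhesion receptor latrophilin 1, was included in 8, 2 and 1 reads of the libraries labelled KDM4B and in 4, 3 and 0 of the vector libraries. Beside these stood 71, 69 and 53 skipping reads against 74, 58 and 63, so that the exon was nearly always left out (4.93% ± 4.52 and 3.35% ± 2.90 included, SD, n = 3 each). The 19-base exon of MRPL33, another protein of the mitochondrial ribosome, was mostly included, with 71, 67 and 64 inclusion and 12, 32 and 19 skipping reads against 58, 77 and 65 and 23, 16 and 26. Its shares of 76.8% ± 8.94 and 75.3% ± 6.51 overlapped widely.

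CD47, the surface protein that signals to macrophages, has 2 short exons that share their flanks, of 25 and 32 bases, in the region of its cytoplasmic tail, which is known to be spliced in alternative forms. The 25-base exon was included in 12, 6 and 4 reads against 13, 9 and 5, and the 32-base exon in 37, 56 and 38 against 62, 58 and 61. Reads that skipped both numbered 48, 31 and 31 in the libraries labelled KDM4B and 41, 53 and 35 in the vector libraries. Inclusion was at 15.9% ± 4.30 against 17.0% ± 6.18 for the shorter and at 54.3% ± 10.4 against 58.7% ± 5.80 for the longer exon (SD, n = 3 each). In each library more reads held the 32-base exon, and neither share differed beyond the spread (edgeR adjusted p = 0.973 and 0.832).

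MARK3, a relative of MARK2, also has 2 short exons with the same flanks, of 27 bases (9 codons) and 45 bases (15 codons). The 27-base exon was included in 5, 0 and 3 reads of the libraries labelled KDM4B and in 0, 0 and 2 of the vector libraries, beside 143 to 202 skipping reads per library. The 45-base exon was included in 13, 12 and 16 reads against 7, 12 and 10. Both were thus left out of most reads in each library, and neither change passed the test (edgeR adjusted p = 0.345 and 0.490). The 25-base exon of ZBTB8OS (96.4% ± 5.18 against 99.4% ± 1.01) and the 26-base exon of SEPT2, a septin of the cytoskeleton (3 events, at 98.4% against 99.2%, 89.7% against 91.4% and 98.1% against 96.6%), were included in nearly all reads. In ZBTB8OS 8 of the 9 skipping reads in the libraries labelled KDM4B came from replicate 4.

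Of a list of 78 genes known for microexons, 44 held a member, and 4 events in 3 of them entered the inclusion test: both exons of MYO6, the 33-base exon of DNM1L and the 38-base exon of CLTA. DNM1L encodes the GTPase of mitochondrial fission. Its exon (11 codons) was included at 26.1, 57.8 and 40.5% in the libraries labelled KDM4B and at 55.6, 62.1 and 49.1% in the vector libraries, which overlap (log2 odds ratio -0.79, SE 0.614, edgeR adjusted p = 0.524). CLTA, a clathrin light chain, included its exon at 97.4% ± 2.54 and 97.7% ± 0.184 (SD, n = 3 each).

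For the members whose forms could not be separated, the joint count of an event was compared with the summed counts of the other events of its gene. A change here is a change in the reads at the event and is by itself no change of inclusion, since the count joins both forms. It could be made for 1683 members (1443 exons in 1222 genes). Of these 5 were called (edgeR quasi-likelihood test, Benjamini-Hochberg adjustment over 34501 events), 3 higher and 2 lower, against 0.53% of all events tested, 0.243% higher and 0.287% lower. The groups did not overlap in 219 members (13.0%) and in 13.2% of all events, and 130 (7.72%) had an unadjusted p under 0.05, against 8.41% of all events. The shares were again close to those over all events.

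The largest change in this comparison without a library under 20 reads was at the 39-base exon of PTPN18 (chr2:131117181-131117219, plus strand), a cytoplasmic tyrosine phosphatase. The event had 24, 29 and 25 reads in the libraries labelled KDM4B and 127, 125 and 120 in the vector libraries. The other events of the gene had 1223, 1208 and 1202 against 2692, 2750 and 2755. Both fell, and the event fell further: its share of the gene's reads was 2.10% ± 0.217 against 4.34% ± 0.166 (SD, n = 3 each), a log2 odds ratio of -1.08 (SE 0.161, edgeR adjusted p = 0.00209). The level of the gene was 24.04 ± 0.537 against 53.7 ± 1.51 FPKM (SD, n = 3 each).

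The short exon of PTPN18 did not move alone. The 96-base exon before it, counted in 2 events, had 46, 80 and 48 reads against 270, 250 and 250 in one (log2 odds ratio -1.004, edgeR adjusted p = 0.00351) and a log2 odds ratio of -0.89 in the other (edgeR adjusted p = 0.0312). These 3 were the called events among the 11 of PTPN18. For each of these exons the deposited table lists 1 RefSeq transcript with the inclusion form, and for each tested exon after them 2. The 109-base and 77-base exons before them also have 1. Neither of those was called (log2 odds ratio 0.36 and 0.03, edgeR adjusted p = 0.286 and 0.976).

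At the 30-base exon of MYO6 the joint count was 162, 193 and 204 against 290, 299 and 293, a share of 2.62% ± 0.254 against 3.70% ± 0.0866 of the gene's reads (SD, n = 3 each). The log2 odds ratio was -0.51 (SE 0.084, edgeR adjusted p = 0.00483), and it was the 1 call among 14 events of MYO6. Since 137, 158 and 162 of these reads against 259, 253 and 249 were the skipping reads described above, the fall in the joint count goes with fewer reads that lack both exons. The event in which the 30-base exon precedes the 39-base exon took 1.65% ± 0.186 against 1.27% ± 0.111 of the gene's reads (SD, n = 3 each), without overlap. It was not called (log2 odds ratio 0.38, SE 0.117, edgeR adjusted p = 0.269). The 27-base exon of MYO6 further on (chr6:76621389-76621415) had 522, 580 and 590 against 515, 622 and 633 reads and was not called. PTPN18 and the 30-base exon of MYO6 kept their calls with each library left out in turn.

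The other 3 calls were higher against their gene. At the 38-base exon of MRPL55, in the 1st of the events described above, the joint count hardly differed, at 105, 108 and 82 against 97, 103 and 99, while the other events of the gene fell from 4731, 4302 and 4063 to 2690, 3070 and 2773 reads. The log2 odds ratio was 0.60 (SE 0.130, edgeR adjusted p = 0.0473). The 3 other events with this exon and other flanks were not called and had log2 odds ratios of -0.04, -0.25 and -0.27 (edgeR adjusted p = 0.983, 0.873 and 0.561), the last with the most reads, 99, 93 and 109 against 205, 163 and 179. A 28-base exon of MYL6, a myosin light chain (chr12:56552468-56552495), was called in 1 event with 47, 42 and 38 against 18, 16 and 14 reads, a log2 odds ratio of 1.04 (SE 0.210, edgeR adjusted p = 0.0293). Its main event, with other flanks and 1128, 1149 and 1264 against 1002, 1027 and 885 reads, was not called.

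A 33-base exon of PHOSPHO2-KLHL23, a read-through gene that shares exons with its neighbours, so that its reads are uncertain, had 34, 32 and 24 against 19, 15 and 18 reads (log2 odds ratio 1.25, SE 0.248, edgeR adjusted p = 0.0268). The MYL6 and PHOSPHO2-KLHL23 events have under 20 reads in some libraries and were chosen after their values were seen. Each of the 3 calls was lost without replicate 1 or 2 of the libraries labelled KDM4B and without vector replicate 1, 2 or 3, with adjusted p of 0.101 to 0.284 for MRPL55, 0.0709 to 0.148 for MYL6 and 0.0803 to 0.137 for PHOSPHO2-KLHL23.

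Of the 209 tested events with an exon of at most 27 bases, 0 were called against their gene with edgeR, with 16 at an unadjusted p under 0.05, and 0 with DESeq2, with 5 at an unadjusted p under 0.05. Over all events, edgeR called 0.53% and gave 8.41% an unadjusted p under 0.05. The 9-base exon of AP1B1 had 307, 296 and 279 reads in the libraries labelled KDM4B and 214, 217 and 211 in the vector libraries, which do not overlap. Its share of the gene's reads overlapped, at 7.89% ± 0.232 against 7.59% ± 0.341 (SD, n = 3 each), and the gene was also higher, at 53.7 ± 1.60 against 41.7 ± 0.855 FPKM. The 9-base exon of MAP4K4 had 131, 125 and 117 against 122, 131 and 108 reads, and that of PTK2 had 136, 96 and 118 against 104, 106 and 108. A 12-base exon of PTPRS had 215, 212 and 195 against 165, 145 and 145 reads, a share of 4.27% ± 0.0534 against 3.73% ± 0.328 of the gene's reads (SD, n = 3 each; edgeR adjusted p = 0.579).

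In the genes of the microexon list 60 events with an exon of at most 51 bases were compared with their gene, in 36 genes. Only the 30-base exon of MYO6 was called. Over all events tested 0.53% were called. The groups did not overlap in 12 of the 60, against 13.2% of all events, and the median log2 odds ratio was 0.03, against 0.00 over all events. Among those not called, the 33-base exon of DNM1L had 46, 45 and 37 against 45, 29 and 53 reads, a larger share of a gene that was lower (log2 odds ratio 0.71, SE 0.199, edgeR adjusted p = 0.192). In its 2nd event, with another exon before it, it had 24, 34 and 32 against 54, 34 and 59 reads and a log2 odds ratio of -0.04 (edgeR adjusted p = 0.982). The 24-base exon of MEF2A, a transcription factor, had 54, 63 and 44 against 54, 69 and 56 reads (edgeR adjusted p = 0.522). The 30-base exon of PPFIA2 had 139, 152 and 126 against 132, 153 and 135 reads (edgeR adjusted p = 0.234), and the 9-base exon of the same gene had 82, 114 and 74 against 67, 79 and 75 (edgeR adjusted p = 0.962).

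Several other exons of at most 27 bases in these genes were well covered in both groups. The 27-base exon of PTPRF, a receptor phosphatase related to PTPRS, had 692, 720 and 691 reads in the libraries labelled KDM4B and 765, 882 and 847 in the vector libraries. The 15-base exon of DCTN1, the large subunit of dynactin, had 133, 131 and 146 against 145, 137 and 141 reads, and the 15-base exon of ABI1, a part of the actin-regulating WAVE complex, had 112, 92 and 117 against 112, 101 and 125. Against their genes none of the 3 was called (edgeR adjusted p = 0.663, 0.898 and 0.775). The 21-base exon of KIF21A, a kinesin, had only 23, 18 and 20 against 15, 17 and 13 reads, which do not overlap (edgeR adjusted p = 0.506).

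The genes that hold short exons moved like the rest of the table. Of 1665 host genes with FPKM values, 1596 were tested. Under the label KDM4B 238 were higher and 1018 were lower (limma, log2(FPKM + 1), adjusted p under 0.05 after Benjamini-Hochberg), against 13.4% higher and 60.3% lower of all 12148 genes. The median log2 fold change was -0.23 for the hosts and -0.22 for all genes. Since this median lies below 0, each library was also divided by its median of ratios to the mean over libraries. After this scaling 562 hosts were higher and 591 lower, against 34.0% higher and 34.0% lower of all genes, with a median of -0.01.

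Of a list of 39 regulators of short or cassette exons, 36 were found in the FPKM table and 28 tested. SRRM4, the main activator of neural microexons, was listed at 0 in all 6 libraries, SRRM3 was at 0.04 to 0.21 FPKM and RBFOX3 at 0.04 to 0.10. As deposited, 6 of the 28 were higher under the label KDM4B and 11 lower, and after scaling 17 were higher and 5 lower. Over all genes tested 13.4% were higher and 60.3% lower as deposited, and 34.0% and 34.0% after scaling. Higher with and without scaling were NOVA1 (4.01 ± 0.240 against 2.26 ± 0.140 FPKM, log2 fold change 0.62 and 0.80 after scaling), PTBP2 (4.36 ± 0.355 against 3.53 ± 0.112, 0.24 and 0.43), QKI (5.80 ± 0.254 against 5.02 ± 0.186, 0.18 and 0.38), PUF60, SF3B3 and U2AF2, the last 3 being parts of the machinery at the 3' splice site. The calls as deposited were lost for PUF60 without vector replicate 3 and with a replicate block (limma adjusted p = 0.07 and 0.201), and for QKI without replicate 4 of the libraries labelled KDM4B (limma adjusted p = 0.0518). The FPKM values are means ± SD of 3 libraries each.

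Lower with and without scaling were ESRP1, U2AF1, SRSF11, MBNL1 and MBNL3. ESRP1, an epithelial splicing regulator, was at 17.24, 17.40 and 18.62 FPKM under the label KDM4B and at 52.62, 48.47 and 48.79 in the vector libraries, with no overlap (log2 fold change -1.44 and -1.21 after scaling, limma adjusted p = 4.35e-10 and 1.18e-08). SRSF11, which together with RNPS1 is known to help SRRM4 act on microexons, was at 52.6 ± 2.11 against 72.2 ± 0.517 FPKM (-0.45 and -0.21 after scaling). MBNL1 was at 14.7 ± 0.560 against 20.3 ± 0.996 FPKM (-0.44 and -0.21) and MBNL3 at 1.74 ± 0.152 against 3.04 ± 0.0115 (-0.56 and -0.39; SD, n = 3 each).

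With the scaling 6 of the 28 turned direction, 7 others gained a call and 4 others lost theirs. PTBP1, the repressor of many neural exons, was at 113 ± 4.68 against 120 ± 1.30 FPKM, a log2 fold change of -0.08 that did not pass the test as deposited (limma adjusted p = 0.0619) and of 0.16 that passed after scaling (adjusted p = 0.0016 with limma). RNPS1 (88.6 ± 4.0 against 109 ± 2.59 FPKM), RBFOX2 (8.97 ± 0.128 against 10.7 ± 0.327) and REST (7.32 ± 0.0987 against 8.89 ± 0.677) were lower as deposited, at log2 fold changes of -0.29, -0.23 and -0.25, and near 0 after scaling, at -0.05, -0.01 and -0.03 (SD, n = 3 each). Besides PTBP1, the direction turned for ESRP2, HNRNPF, KHSRP, SF3B1 and SRRM2. Of these, ESRP2, KHSRP and SF3B1 passed the test only after scaling, and HNRNPF and SRRM2 only as deposited. Among the genes that kept their direction, the calls gained were those of CELF1, ELAVL1, HNRNPH1, KHDRBS1, KHDRBS3, SF1 and SRRM1, and the 4th call lost was that of PTBP3.

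**Figure D5:**
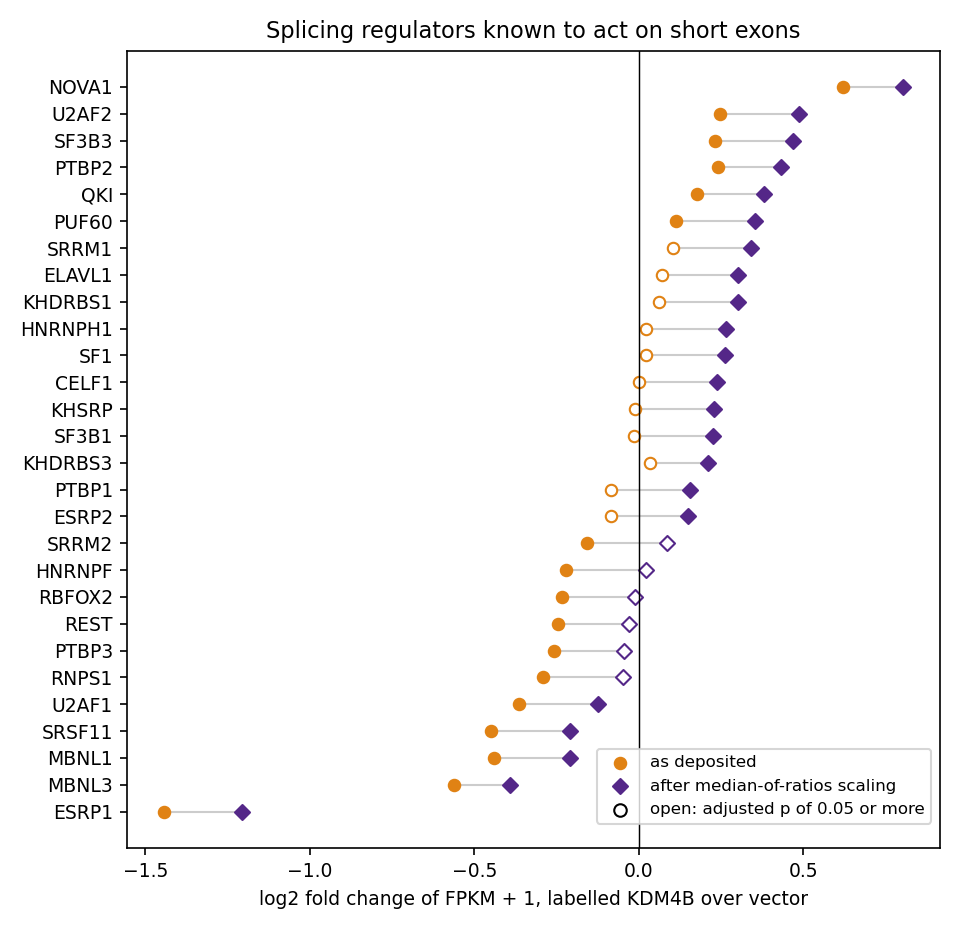
Log2 fold change of FPKM + 1, labelled KDM4B over vector (x axis), of the 28 tested regulators (y axis); orange circles are values as deposited, violet diamonds values after median-of-ratios scaling, and open symbols have a limma adjusted p of 0.05 or more. NOVA1 is highest (0.62 and 0.80) and ESRP1 lowest (-1.44 and -1.21), and 6 genes move from below to above 0.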

How the data were processed

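The authors deposited whole-number read counts per splicing event and library, not normalized, and, per the file headers, FPKM of each gene with 2 decimals. The submitters' processing notes name HISAT, StringTie, Cufflinks, GRCh38 and hg38. None of splicing caller, read length and treatment of reads over several junctions is given in the sources used here. Only 14.0% of the members lay inside their gene on GRCh38 in the RefSeq gene table. The event coordinates thus do not match the build named in the notes, and which build they follow is uncertain. Coordinates are printed as deposited, counted from 1, exon sequences were not used here, and RefSeq transcripts are those the authors listed beside each event.

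In 3247 sets (2 left out) of 2 SE events and 1 event of mutually exclusive exons, the skipping count is the sum of both SE counts minus the other, divided by 2; 19478 of 19482 values were even and not negative before the division. Splicing was tested with edgeR 4.0.16 (R 4.3.3; glmQLFit and glmQLFTest; library, form, and form-by-group interaction), two-sided, where every library had at least 10 reads and each form at least 10 over all libraries. FPKM were tested with limma 3.58.1 (trend) on log2(FPKM + 1), which understates changes of low genes, for means of at least 1 FPKM. The Benjamini-Hochberg threshold was 0.05 over the whole table. Scaling divided each library by its median of ratios (0.904 to 0.942 for the libraries labelled KDM4B, 1.09 for vector). Each test was tried on simulated data. Chi-square per degree of freedom over the members was 1.50 to 1.76 within groups, so no library was a copy of another.

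Named events were the called ones, the 10 largest differences in share with no overlap and no library under 20 reads, tested events of at most 27 bases or in the microexon list, called events against the gene without a library under 20 reads, and all listed regulators. Members, lists and tests were chosen with earlier results of these data known. Alternatives were DESeq2 1.42.0, other filters, scalings and pseudocounts, 1 event per exon, leaving out each library, and a replicate block.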

Additional observations from a re-analysis of the deposited data

How the results depend on the processing

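The limits lie in the number of reads: 65.3% of the members with separable forms and enough reads had fewer than 10 skipping reads over all libraries, and their inclusion was not tested. The 1 call of higher and the 2 calls of lower inclusion became 0 and 1 with DESeq2, 0 and 0 without a read filter, 1 and 1 with 20 reads or more in every library, and 0 and 0 for exons of at most 27 bases. They became 0 to 1 and 0 to 2 as each library was left out in turn. Against the gene, the 3 higher and 2 lower calls became 1 and 2 with 1 event per exon and with at least 20 reads, 0 and 0 for exons of at most 27 bases, and 0 to 3 and 2 to 2 as each library was left out. Host genes went from 238 higher and 1018 lower to 562 and 591 with median-of-ratios scaling and to 203 to 224 and 953 to 1042 with a library left out. The other alternatives kept these counts within 1.5 times. Where a direction or call changed, the cause was not tested.

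With the replicate block 0 higher and 0 lower inclusion calls were made (edgeR adjusted p = 0.130 for MYO6, 0.248 for MRPL55 and 0.214 for SORBS3), and 5 higher and 4 lower calls against the gene. Only numbers 1 and 2 occur in both groups, and the labels give them no meaning. Deviations of same-numbered libraries correlated at -0.024 and 0.135 in expression and at -0.058 and -0.073 in inclusion. Between libraries of different number the correlations were -0.155 to 0.104 in expression and -0.102 to 0.167 in inclusion. With only 2 same-numbered pairs these values cannot tell whether the numbers pair the samples. Under the block the log2 odds ratio turned for EEF1D (0.60), MRPL33 (-0.060), 1 event of SEPT2 (0.51) and ZBTB8OS (0.48), and the log2 fold change of KHSRP turned to 0.0024. With DESeq2 that of CLTA turned (0.057). Median-of-ratios scaling turned ESRP2 (0.15), HNRNPF (0.023), KHSRP (0.23), PTBP1 (0.16), SF3B1 (0.23) and SRRM2 (0.086).

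Leaving out 1 library turned the sign of some values that were not called: log2 odds ratios ranged from -0.35 to 0.29 for CD47, -0.61 to 1.08 for CLTA, -0.29 to 0.33 for EEF1D, -0.51 to 1.07 for LPHN1 and -0.24 to 0.51 for MRPL33. Log2 fold changes ranged from -0.030 to 0.029 for CELF1, -0.021 to 0.065 for HNRNPH1, -0.026 to 0.011 for KHSRP, -0.031 to 0.010 for SF3B1, and -0.012 to 0.051 for SF1.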
